A study of Mus musculus with 6 samples.

Results

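The nuclear-encoded genes of the mitochondrial respiratory chain were taken by symbol. The rule kept every mouse gene whose symbol starts with Ndufa, Ndufb, Ndufc, Ndufs or Ndufv, is Sdha, Sdhb, Sdhc or Sdhd, or starts with Uqcr, with Cox4 to Cox8 or with Atp5. It took 99 of 50600 gene identifiers in the count tables, after 5 pseudogenes whose names end in -ps and a number were set aside. The members were 93 protein-coding genes and 6 processed pseudogenes. Of the 99, 39 were counted under complex I, 4 under complex II, 8 under complex III, 21 under complex IV and 16 under complex V, and 8 were Ndufaf assembly factors of complex I. The remaining 3 were Atp5s, a coupling factor that is no subunit, and the pseudogenes Atp5l2-ps and Ndufab1-ps.

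The respiratory chain lies in the inner mitochondrial membrane. Complex I oxidises NADH and complex II oxidises succinate, both pass electrons to coenzyme Q, complex III hands them to cytochrome c and complex IV reduces oxygen. The proton gradient that complexes I, III and IV build drives complex V, the ATP synthase. Subunits of complex II are all encoded in the nucleus, whereas the other complexes also hold subunits encoded in mitochondrial DNA.

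The RNA, selected for poly(A) tails, came from cortical epithelial cells of the thymus (cTECs), primary cells that select developing T cells. The KO group held 3 libraries from Psmb11-/- mice and the WT group 3 libraries from Psmb11+/+ mice, each labelled A, B and C. All mice carried the strain name B6.B6CB-Psmb11tm1Smta and were 8 to 10 weeks old. The labels name no promoter or Cre that limits the Psmb11 mutation to a cell type. Psmb11 encodes the thymus-specific proteasome subunit β5t, and the labels give neither the gate used to isolate the cells nor the number of mice behind a library, so p-values measure only the spread between these samples.

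Gene counts per library were 34265035 to 36713388 in KO and 34660349 to 39224292 in WT. Psmb11 itself had 67, 36 and 41 counts in the KO libraries, against 8293, 9297 and 10027 counts in the WT libraries (log2 fold change -7.56, edgeR adjusted p = 1.65e-11). Of 12 genes listed as markers of cTECs other than Psmb11, 10 were lower (83.3%), 1 was higher (8.33%) and 1 was not called in KO. Of all genes tested, 11.1% were called lower and 12.5% higher. The 12 were Prss16, Ccl25, Ly75, Cd83, Foxn1, Dll4, Cxcl12, Tbata, Il7, Krt8, Krt18 and Epcam. Their summed level was 6149 to 6914 CPM in KO and 9543 to 9706 CPM in WT. Levels in CPM are gene counts relative to library size and compare libraries, and levels in TPM also account for transcript length and compare genes. A gene was called at an adjusted p below 0.05 over all 16938 genes tested. In bulk RNA, fewer cells of a type and less RNA per cell cannot be told apart.

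Promoter stretches of 6 members are shown as examples. Factors of 3 families known to act on respiratory genes, NRF1, the ETS family with GABP, and YY1, have short recognition letters. Whether these factors bear on the fold changes was not tested. Each stretch is the 130 bases before the RefSeq start of the gene (GRCm38.p6), written 5′ to 3′ on the gene's strand in lower case. Matches to NRF1 (GCGCATG) or ETS or GABP (CCGGAAG) on either strand are in capitals. Ndufa11 (chr17:56717632-56717761, plus strand) had the largest fall of all members and holds NRF1 letters on both strands that overlap. Sdhd (chr9:50603850-50603979, minus strand), Uqcrh (chr4:116075071-116075200, minus strand) and Atp5h (chr11:115419920-115420049, minus strand) belong to complexes II, III and V. They hold ETS letters, here as the reverse complement, and do not represent all members of their complexes. Atp5b (chr10:128083177-128083306, plus strand), the member with the highest level, and Cox8b (chr7:140900447-140900576, minus strand), the only member called higher, hold none of the 3 in this stretch.
Ndufa11: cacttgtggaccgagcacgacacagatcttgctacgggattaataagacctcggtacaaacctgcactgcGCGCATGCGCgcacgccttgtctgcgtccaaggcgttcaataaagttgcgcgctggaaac
Sdhd: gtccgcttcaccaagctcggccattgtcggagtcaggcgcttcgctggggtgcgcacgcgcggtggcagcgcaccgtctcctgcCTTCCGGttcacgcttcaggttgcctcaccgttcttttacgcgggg
Uqcrh: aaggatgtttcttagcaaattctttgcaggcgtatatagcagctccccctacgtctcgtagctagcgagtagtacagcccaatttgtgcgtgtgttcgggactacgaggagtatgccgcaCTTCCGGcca
Atp5h: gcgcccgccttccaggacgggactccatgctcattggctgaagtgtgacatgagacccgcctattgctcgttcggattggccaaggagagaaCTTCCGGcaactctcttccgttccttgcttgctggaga
Atp5b: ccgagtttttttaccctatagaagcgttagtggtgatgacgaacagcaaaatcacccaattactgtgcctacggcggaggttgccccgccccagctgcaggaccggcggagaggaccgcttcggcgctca
Cox8b: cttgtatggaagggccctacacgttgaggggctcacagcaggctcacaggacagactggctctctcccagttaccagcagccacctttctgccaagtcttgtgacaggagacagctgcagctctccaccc

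The RefSeq table gave a window from 250 bases before to 50 bases after the start for 74 of the 99 members, 72 of them tested. Some genes have several starts, which made 77 windows. NRF1 letters were in 19.5% of these windows, against 6.10% of 15090 windows of all genes tested. ETS or GABP letters were in 23.4% and 15.6%, and YY1 letters (AAGATGG) in 14.3% and 6.63%. None of the 3 motifs was in 54.5% of the members' windows and in 74.6% of the windows of all genes tested. By complex, NRF1 letters were in 5 of 34 windows for complex I, 1 of 3 for complex II, 2 of 5 for complex III, 2 of 12 for complex IV and 3 of 16 for complex V. In the same order, ETS or GABP letters were in 4, 2, 2, 3 and 5 of these windows. YY1 letters were in 7, 0, 0, 1 and 2 of them. For complex I the ETS or GABP share was 11.8%, below that of all genes tested. These shares describe letters and carry no test of binding.

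Nuclear-encoded respiratory chain genes were lower in KO cTECs by small amounts across all complexes. Of 89 members tested, 63 were called lower, 1 was called higher and 25 were not called (edgeR quasi-likelihood), while 11.1% of all genes tested were called lower and 12.5% higher. The median log2 fold change was -0.17 over the members, a 1.12-fold lower level, and -0.00 over all genes tested. In 75 members every KO library lay below every WT library, in 2 every KO library lay above, and in 12 the groups overlapped. The same order, KO below WT in every library, held for 20% of all genes tested, and KO above WT for 19.2%. At a mean of 20 CPM or more, 61 of 75 members were called lower, against 18.9% of all 8237 such genes, whose median was -0.02.

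The 63 falls differed in how well they withstood other choices. Without each library in turn, between 45 and 61 members were called lower, and 41 of the 63 were called in every such fit. With limma on log2(TPM + 1), 37 members were called lower, against 4.48% of all genes tested, and the median over members was -0.14. Against a fold change of 1.1, a test added after the data were seen, 17 members were called lower, against 3.48% of all genes. With a trend of level on transcript length taken out of each library, 24 members were called lower, against 8.42% of all genes. The median was then -0.09 over members and 0.02 over all genes tested. That fit was also added after the data were seen and is described with the lengths below.

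**Figure D1:**
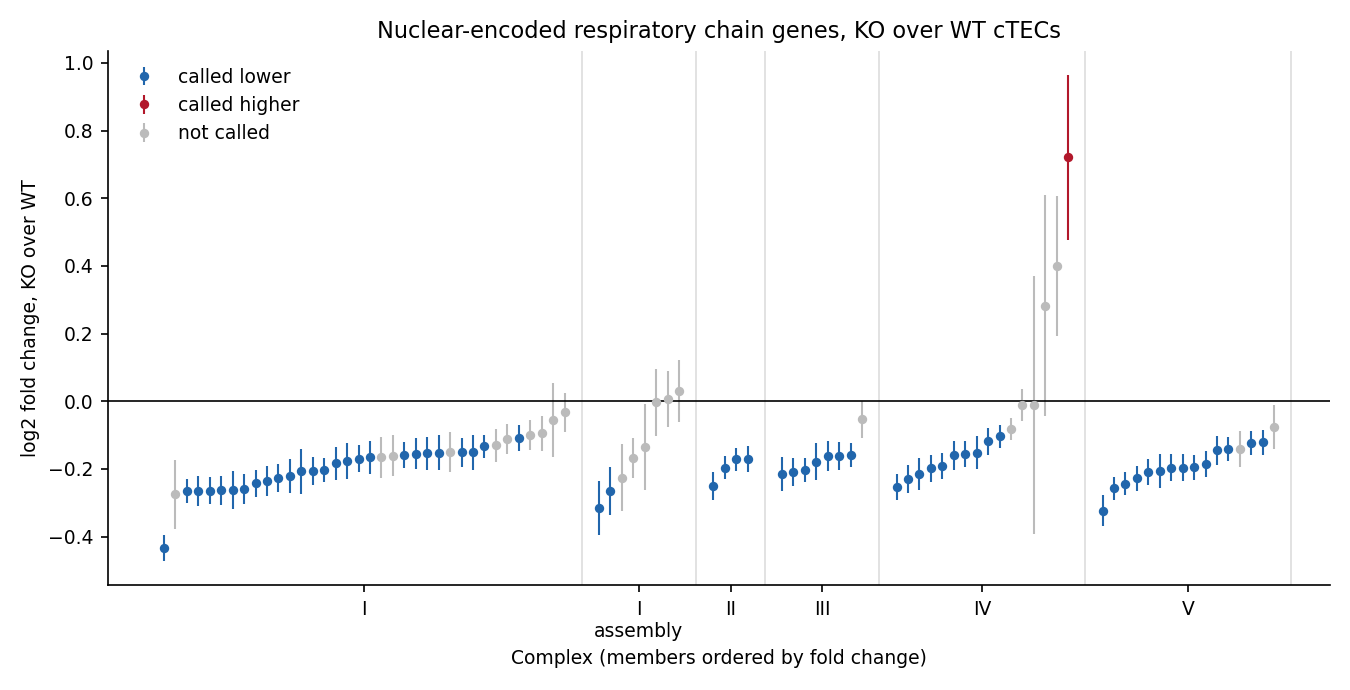
Log2 fold change, KO over WT, of the tested members, grouped by complex and ordered by size within each; bars are standard errors of the edgeR fit from 3 KO and 3 WT libraries. The members called lower lie between -0.43 (Ndufa11) and -0.10 (Cox4i1), and Cox8b lies highest at 0.72. Atp5s is not drawn.

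Summed over the 93 protein-coding members, the level was 17709, 17327 and 17391 TPM in KO libraries A, B and C, against 19556, 19336 and 19657 TPM in WT libraries A, B and C. Every KO library was below every WT library, and the KO mean was 10.5% lower. By complex the KO mean of the summed TPM was 10.6% lower for complex I, 9.36% for complex II, 9.88% for complex III, 8.37% for complex IV and 12% for complex V. The KO and WT libraries did not overlap in the sum of any complex. Spread between libraries of a group was small beside these differences: the sum for complex V was 5736 ± 109 TPM in KO and 6519 ± 53.8 TPM in WT (SD, n = 3 each).

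**Figure D2:**
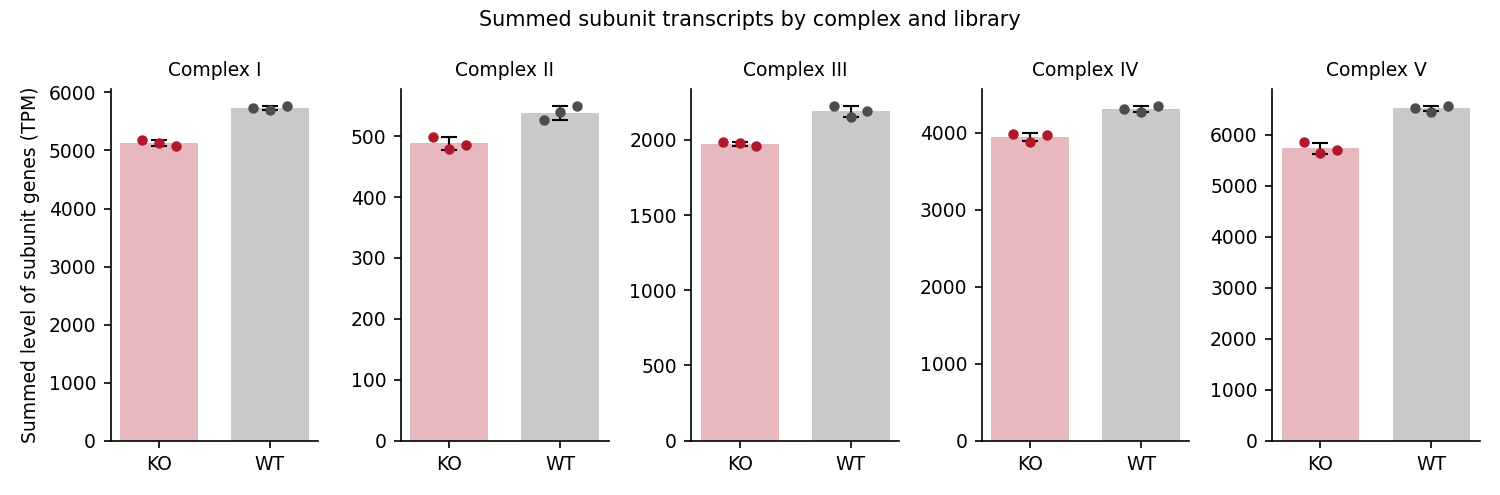
Summed TPM of the protein-coding subunits of each complex by library, KO left of WT; bars are means, whiskers are SD over 3 libraries and points are libraries. Each panel has its own axis from 0, and in each the 3 KO points lie below the 3 WT points.

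Each library's position was read as the median deviation of its log2 CPM from the mean of the 6 libraries. Over the members it was -0.07, -0.09 and -0.10 in KO libraries A, B and C, against 0.11, 0.06 and 0.10 in WT libraries A, B and C. No KO library reached a WT library, and WT library B stood nearest to KO. Within groups the SD was 0.024. Over all genes tested the same measure lay between -0.002 and 0.003 in every library.

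**Figure D3:**
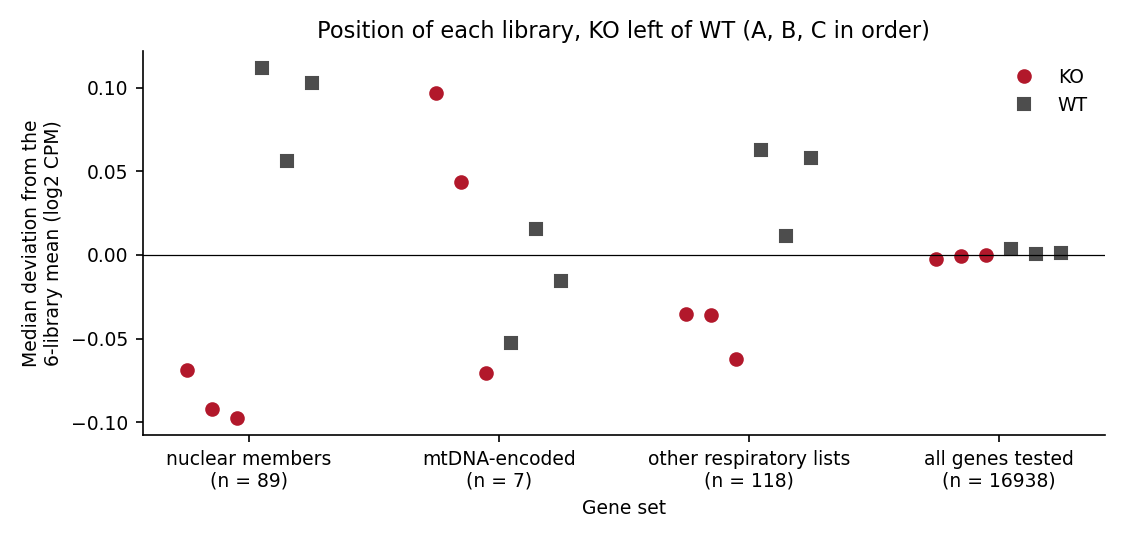
Median deviation of log2 CPM from the 6-library mean for 4 gene sets, each library a point, KO left of WT. Over the nuclear members the KO points lie at -0.07 to -0.10 and the WT points at 0.06 to 0.11, over 7 subunits encoded in mitochondrial DNA the KO points spread from -0.07 to 0.10, and over all genes tested all points lie near 0.

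Complex I, the NADH dehydrogenase, had 26 of 36 tested members called lower, 0 called higher and 10 not called (edgeR), with a median log2 fold change of -0.17 and no member above 0. Ndufs1, an iron-sulphur subunit, was among the falls with a log2 fold change of -0.11. It was not called without KO library A or C or any WT library (log2 fold changes from -0.12 to -0.09). At an unadjusted p below 0.05, 33 members of complex I were lower and 0 were higher, against 16.9% and 18.1% of all genes tested. DESeq2 called 20 lower and 0 higher, against 9.32% and 11.6% of all genes tested.

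Ndufa11, an accessory subunit of the membrane arm (ENSMUSG00000002379.6, chromosome 17, 56717767 to 56722141, GRCm38), had 126, 116 and 118 CPM in KO libraries A, B and C, against 162, 157 and 166 CPM in WT libraries A, B and C. The 2 ranges were far apart. It was 1.35-fold lower in KO (log2 fold change -0.43 ± 0.039 (SE), edgeR adjusted p = 1.56e-06), the largest fall among the members. Ndufb9, an accessory subunit of the same arm, had 74.2, 72.5 and 73.7 CPM in KO libraries A, B and C, against 89.8, 88.4 and 86.8 CPM in WT libraries A, B and C. No KO library reached the WT range (1.2-fold lower, log2 fold change -0.27 ± 0.037 (SE), edgeR adjusted p = 9.01e-05), although 201 of its exon bases are shared with the gene model Gm49356 on the same strand. Ndufs8, a core subunit that carries iron-sulphur clusters, had 50.7, 52 and 52.9 CPM in KO libraries A, B and C, against 61.5, 62.6 and 62.8 CPM in WT libraries A, B and C. Its KO libraries were all lower (1.2-fold, log2 fold change -0.26 ± 0.040 (SE), edgeR adjusted p = 0.000209). Ndufv3, an accessory subunit of the peripheral arm, had 55.6, 51.6 and 53.5 CPM in KO libraries A, B and C, against 64.9, 63 and 65.1 CPM in WT libraries A, B and C, again without overlap (1.2-fold lower, log2 fold change -0.26 ± 0.043 (SE), edgeR adjusted p = 0.000331).

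The complex I members with the highest TPM also fell. Ndufb10 had 277 ± 4.14 TPM in KO cTECs and 318 ± 16.4 TPM in WT cTECs and Ndufa7 had 249.7 ± 5.1 TPM in KO cTECs and 288 ± 12.9 TPM in WT cTECs (SD, n = 3 each), and their log2 fold changes from counts were -0.24 and -0.26 (edgeR adjusted p = 0.00104 and 0.000527). Of the 10 members not called, 8 had every KO library below every WT library, an order that held for 20% of all genes tested. The groups overlapped in Ndufb2 and Ndufab1. Ndufab1, the mitochondrial acyl carrier protein, had 28.4, 27.3 and 25.9 CPM in KO libraries A, B and C, against 29, 27.5 and 27.2 CPM in WT libraries A, B and C, with the ranges interleaved (log2 fold change -0.03). The Ndufaf assembly factors, which build complex I but are not part of it, had 2 of 8 called lower and a median of -0.15. Ndufaf8 had 13, 12.4 and 12.2 CPM in KO libraries A, B and C, against 15, 15.5 and 16.5 CPM in WT libraries A, B and C, without overlap (log2 fold change -0.32 ± 0.079 (SE), edgeR adjusted p = 0.00824). Ndufaf3 had a log2 fold change of -0.27 (edgeR adjusted p = 0.0115). Neither was called without WT library C (log2 fold changes -0.28 and -0.23), which left 0 of the 8 called.

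All 4 subunits of complex II, the succinate dehydrogenase of the citric acid cycle, were called lower. Sdha, the flavoprotein that oxidises succinate, had 217, 225 and 221 CPM in KO libraries A, B and C, against 249.7, 254 and 257 CPM in WT libraries A, B and C. The KO libraries were all below the WT libraries (1.15-fold, log2 fold change -0.20 ± 0.033 (SE), edgeR adjusted p = 0.00048). Sdhd, a membrane anchor whose promoter stretch with ETS letters is printed above, had 56.5, 58.9 and 56 CPM in KO libraries A, B and C, against 67.8, 66.4 and 69.6 CPM in WT libraries A, B and C. It was 1.19-fold lower (log2 fold change -0.25 ± 0.041 (SE), edgeR adjusted p = 0.000382) with no overlap. Sdhb, the iron-sulphur subunit, and Sdhc, the other anchor, had log2 fold changes of -0.17 and -0.17 (edgeR adjusted p = 0.0047 and 0.00206). The 4 were called lower without each library in turn as well. With limma on log2(TPM + 1), 2 of the 4 were called.

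Complex III, the cytochrome bc1 complex, had 7 of 8 members called lower and 1 not called, with a median of -0.17. Uqcrc1, a core protein, had 156, 149 and 146 CPM in KO libraries A, B and C, against 175, 172 and 172 CPM in WT libraries A, B and C. The groups did not overlap (1.15-fold lower, log2 fold change -0.20 ± 0.035 (SE), edgeR adjusted p = 0.000634). Uqcrh, the hinge protein beside cytochrome c1 and the complex III member with the highest TPM (525 ± 17.3 TPM in KO cTECs and 579 ± 25.3 TPM in WT cTECs; SD, n = 3 each), had 116, 122 and 118 CPM in KO libraries A, B and C, against 139.8, 126 and 131 CPM in WT libraries A, B and C. It was 1.12-fold lower (log2 fold change -0.16 ± 0.041 (SE), edgeR adjusted p = 0.00882), with WT library A the highest library, and it was not called without WT library A (log2 fold change -0.12). The small subunits Uqcr10 and Uqcr11 and the core protein Uqcrc2 had log2 fold changes of -0.21, -0.22 and -0.16 (edgeR adjusted p = 0.00151, 0.00496 and 0.00406). The member not called, Uqcrb, had 48.6, 51.5 and 44.3 CPM in KO libraries A, B and C, against 50.5, 51.4 and 48 CPM in WT libraries A, B and C, and its groups overlapped (log2 fold change -0.05). With limma on log2(TPM + 1), 2 members of complex III were called lower.

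Complex IV, cytochrome c oxidase, had 10 of 16 tested members called lower, 1 called higher and 5 not called, with a median of -0.14. The falls were in subunits used by most tissues. Cox8a, a small membrane subunit and the complex IV member with the highest TPM (627 ± 30.4 TPM in KO cTECs and 733 ± 18 TPM in WT cTECs; SD, n = 3 each), had 138, 129 and 141 CPM in KO libraries A, B and C, against 159, 162 and 165 CPM in WT libraries A, B and C. All KO values were lower (1.19-fold, log2 fold change -0.25 ± 0.039 (SE), edgeR adjusted p = 0.000204). Cox7b had 76, 73.2 and 78.5 CPM in KO libraries A, B and C, against 92.6, 86.6 and 87.8 CPM in WT libraries A, B and C, also without overlap (1.17-fold lower, log2 fold change -0.23 ± 0.041 (SE), edgeR adjusted p = 0.000791). Cox5b and Cox6b1 had log2 fold changes of -0.20 and -0.19 (edgeR adjusted p = 0.00174 and 0.0021). The number called lower was 6 without KO library B and 6 without WT library A, and 5 with limma on log2(TPM + 1). With the length trend taken out it was 2, and the median was -0.02. With Ndufa4 and Ndufa4l2 counted under complex I, as their names have it, 9 of 14 members of complex IV and 27 of 38 of complex I were called lower.

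Several subunits of complex IV exist as a common form and a form used by particular tissues. Cox8b, the form of muscle and brown fat in the mouse (chromosome 7, 140898945 to 140900446), had 1.86, 2.25 and 1.4 CPM in KO libraries A, B and C, against 1.05, 1.31 and 0.998 CPM in WT libraries A, B and C. The lowest KO library was just above the highest WT library. It was 1.65-fold higher in KO (log2 fold change 0.72 ± 0.24 (SE), edgeR adjusted p = 0.042) at a low level, and among the fits that leave out a library it was called only without KO library C. The log2 fold change was 0.71 without KO library A, 0.55 without KO library B, 0.68 without WT library A, 0.85 without WT library B and 0.64 without WT library C. Of 10 muscle or myoid markers 4 were tested, 1 lower and 1 higher, and their summed level was 74.7 to 82.7 CPM in KO and 71.8 to 81.0 CPM in WT. Adipocyte markers summed to 4.31 to 11.2 CPM in KO and 5.52 to 9.42 CPM in WT. Their part in the level of Cox8b was not tested.

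Cox4i1, the common form of its pair, had 179.8, 179.9 and 187 CPM in KO libraries A, B and C, against 199, 192 and 196 CPM in WT libraries A, B and C, with no overlap and a log2 fold change of -0.10 (edgeR adjusted p = 0.0379). It was not called without KO library A, KO library B, WT library A, WT library B or WT library C (log2 fold changes from -0.09 to -0.12). Its partner Cox4i2, known from lung, had 0.532 ± 0.178 CPM in KO cTECs and 0.538 ± 0.176 CPM in WT cTECs (SD, n = 3 each) and overlapping groups. Cox6a1 and Cox7a2, the common forms, had log2 fold changes of -0.16 and -0.16 (edgeR adjusted p = 0.00794 and 0.0123), Cox7a2 not without KO library B, WT library A or WT library B (-0.14, -0.14 and -0.16). The muscle forms Cox6a2 and Cox7a1 had too few counts to be tested, with at most 0.0539 and 0.271 CPM in any library. Cox6b2, a testis form, had 2.96, 2.36 and 2.81 CPM in KO libraries A, B and C, against 2.67, 1.59 and 1.92 CPM in WT libraries A, B and C with overlapping groups (log2 fold change 0.40, edgeR adjusted p = 0.183). Cox7b2 had 1 count in KO library B and 0 in the other libraries. Cox8c had 0 counts in all 6 libraries, which allows up to 0.0767 to 0.0877 CPM per library at 3 counts, a limit for counting error only.

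Ndufa4, named for complex I but placed in complex IV, had 64.9, 64.8 and 66.7 CPM in KO libraries A, B and C, against 72.1, 67.9 and 78.1 CPM in WT libraries A, B and C. It did not overlap between groups (log2 fold change -0.15, edgeR adjusted p = 0.0311) and was not called without KO library A, KO library B, WT library A or WT library C (-0.15, -0.15, -0.16 and -0.10). Ndufa4l2, its hypoxia-induced relative, had 0.62, 0.57 and 0.644 CPM in KO libraries A, B and C, against 0.465, 0.473 and 0.563 CPM in WT libraries A, B and C. Its KO libraries were all higher, at a level where the difference was not called (log2 fold change 0.28, edgeR adjusted p = 0.587). Cox7a2l, which helps join complexes III and IV into supercomplexes, had 137 ± 1.76 CPM in KO cTECs and 145 ± 1.28 CPM in WT cTECs (SD, n = 3 each) and was not called (log2 fold change -0.08, edgeR adjusted p = 0.0875).

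**Figure D4:**
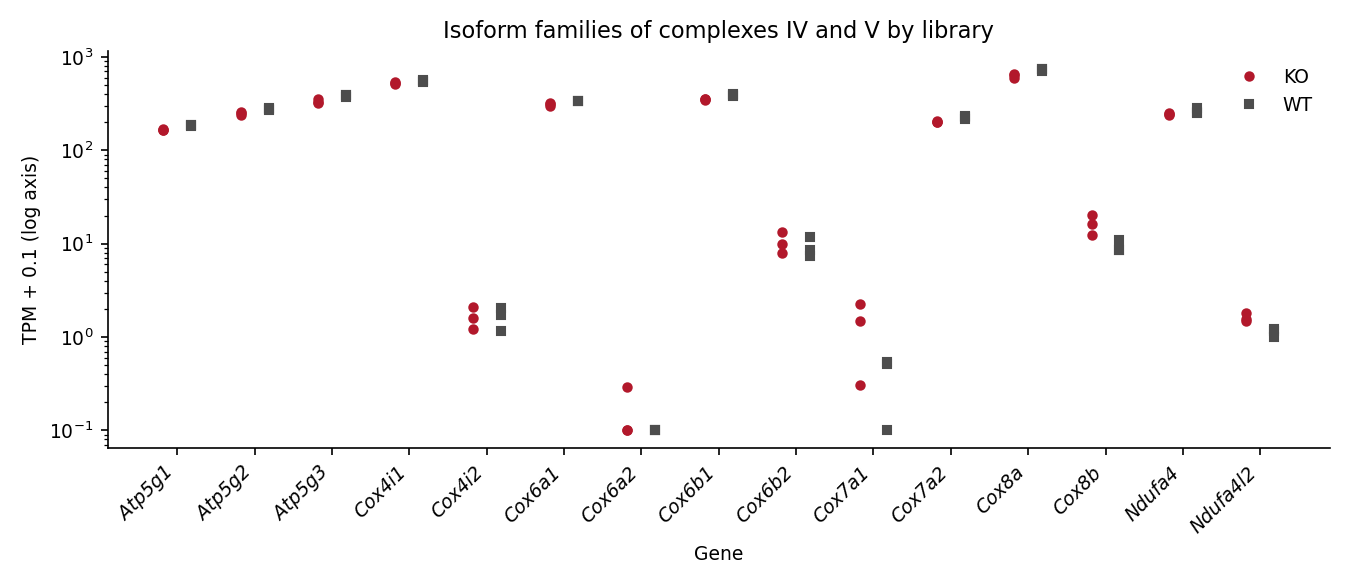
TPM plus 0.1 on a log axis for the isoform families of complexes IV and V, KO circles left of WT squares, each point a library. Mean levels of the common forms run from 167 TPM (Atp5g1 in KO) to 733 TPM (Cox8a in WT), with KO points at or below WT points, whereas the tissue forms lie far lower and Cox8b has its KO points above its WT points.

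Complex V, the ATP synthase, had 14 of 16 members called lower and 2 not called, with a median of -0.20. Atp5b, the catalytic β subunit and the member with the highest level (chromosome 10, 128083273 to 128090391), had 1049.9, 1022 and 1075 TPM in KO libraries A, B and C, against 1222, 1239.7 and 1238 TPM in WT libraries A, B and C. On the count scale it had 684, 656 and 680.0 CPM in KO libraries A, B and C, against 799.9, 792 and 801 CPM in WT libraries A, B and C. The groups were well apart and it was 1.18-fold lower (log2 fold change -0.24 ± 0.034 (SE), edgeR adjusted p = 8.54e-05). Atp5a1, the α subunit that alternates with β in the F1 head, had 767, 752 and 750.3 CPM in KO libraries A, B and C, against 894, 908 and 911 CPM in WT libraries A, B and C. It was 1.2-fold lower (log2 fold change -0.26 ± 0.033 (SE), edgeR adjusted p = 4.19e-05), likewise without overlap. Atp5mpl, a small membrane subunit, had 36.4, 36.7 and 36.3 CPM in KO libraries A, B and C, against 46.3, 44 and 46.6 CPM in WT libraries A, B and C. Its KO libraries lay close together and below every WT library (1.25-fold, log2 fold change -0.32 ± 0.046 (SE), edgeR adjusted p = 0.000112), the largest fall in complex V. Atp5h, subunit d of the stalk that holds the head still, had 113, 107 and 109 CPM in KO libraries A, B and C, against 131, 125 and 129 CPM in WT libraries A, B and C, with no overlap (1.17-fold lower, log2 fold change -0.23 ± 0.037 (SE), edgeR adjusted p = 0.000356).

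The rotor ring of the ATP synthase is made of subunit c, encoded by 3 genes whose mature protein is the same. Atp5g3, the most abundant of them, had 358, 324 and 333 TPM in KO libraries A, B and C, against 389.7, 376 and 392 TPM in WT libraries A, B and C. Its KO libraries were all lower (log2 fold change from counts -0.21, edgeR adjusted p = 0.00108). Atp5g2 had 255, 236 and 249 TPM in KO libraries A, B and C, against 285, 271 and 277 TPM in WT libraries A, B and C, without overlap, and was not called from its counts (log2 fold change -0.14, edgeR adjusted p = 0.066). It was called lower without KO library A (-0.18) and with RSEM counts (-0.20), and its unique counts were 0.483 of its RSEM counts. Atp5g1 had 166, 166 and 170.2 TPM in KO libraries A, B and C, against 187, 181 and 188 TPM in WT libraries A, B and C and a log2 fold change of -0.15 (edgeR adjusted p = 0.0239). It did not overlap between groups and was not called without WT library A or WT library C (-0.12 and -0.16).

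Reads that map to several places are not in the gene counts. In 9 tested members unique counts were under 0.8 of the RSEM estimate: Ndufb2, Ndufb4, Ndufb8, Ndufs5, Ndufab1, Cox7a2l, Cox7c, Atp5g2 and Atp5l. Of these, 1 was called lower, Ndufs5, a share of 11.1%, the same as the 11.1% of all genes tested. Among the fits that leave out a library, Ndufs5 was called only without KO library B or WT library C (log2 fold changes from -0.26 to -0.15). The median log2 fold change of the 9 was -0.08. The other 80 tested members had 62 called lower (77.5%) and a median of -0.17. Of the 9, Ndufb8 shares 134 exon bases with Gm20538, Ndufb2 shares 145 with Gm42420 and Atp5g2 shares 75 with Mir688, each on the same strand. Why the unique counts were low was not tested. Cox7c, a small subunit of complex IV, had 39.3, 41.9 and 40.8 CPM in KO libraries A, B and C, against 41.1, 39.5 and 42.4 CPM in WT libraries A, B and C, and its groups overlapped. The pseudogene Ndufb4c had at most 1 unique count in a library while RSEM gave it 244 ± 19.3 TPM in KO cTECs and 276 ± 7.49 TPM in WT cTECs (SD, n = 3 each), and Ndufb4 itself (log2 fold change -0.28, edgeR adjusted p = 0.0592) is uncertain. None of the 6 pseudogenes had enough unique counts to be tested.

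Transcript length moved with the fold change. The tested members had a median length of 727 bases, against 2310 bases for all genes tested. Among genes with at least 20 CPM that are no members, 33.1% of those under 700 bases were called lower, 33.0% of those from 700 to under 1200 bases, 23.3% of those from 1200 to under 2000 bases, 16.3% of those from 2000 to under 4000 bases and 12.4% of longer ones. Their median log2 fold changes were -0.09, -0.10, -0.05, -0.02 and 0.01. The members in the first 4 of these ranges numbered 35, 22, 13 and 5, had 26, 18, 13 and 4 called lower, and had medians of -0.17, -0.19, -0.17 and -0.20. A smooth trend of level on length was taken out of each library, fitted on genes of at least 5 CPM that are no members. With this trend taken out, 74 members had a fold change below 0 and 24 were called lower. The median was -0.09 over members and 0.02 over all genes tested. In that fit 12 members of complex I, 3 of complex II, 2 of complex III, 2 of complex IV, 5 of complex V and 0 assembly factors were called lower. The 24 included Ndufa11, Ndufb9, Ndufs8, Ndufv3, Sdha, Sdhc, Sdhd, Uqcrc1, Uqcrc2, Cox8a, Cox7b, Atp5a1, Atp5b, Atp5mpl and Atp5h. Why length moved with the fold change was not tested.

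**Figure D5:**
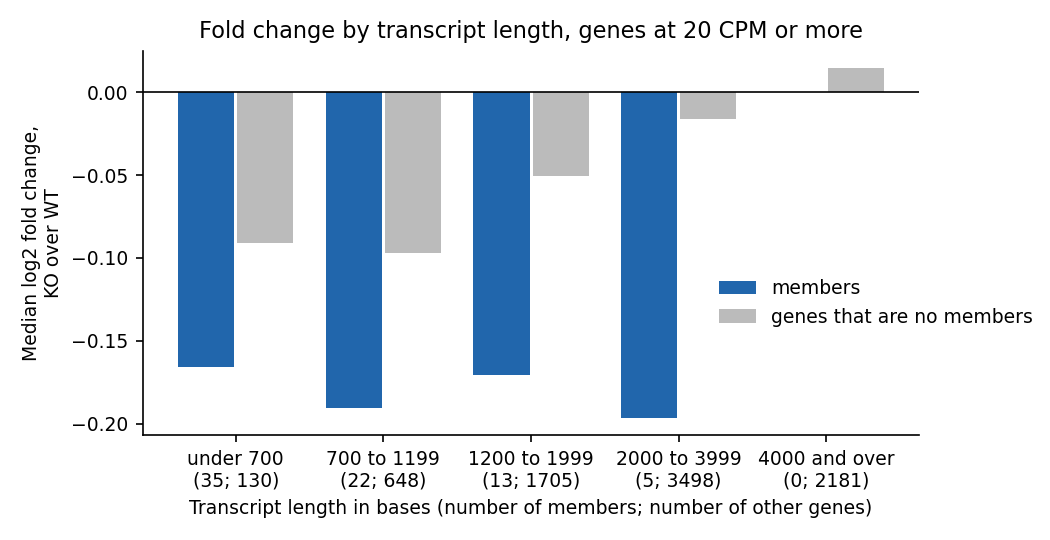
Median log2 fold change, KO over WT, by transcript length for members and for genes that are no members, at a mean of 20 CPM or more, with the number of each under the axis. Members lie at -0.17 to -0.20 in each range that holds them, and the other genes lie between -0.10 in short transcripts and 0.01 in the longest.

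Of 13 subunits encoded in mitochondrial DNA, 7 had unique counts of at least 0.1 of the RSEM estimate, a limit set after the data were seen. Of these 7, 0 were called lower and 1, mt-Nd2, was called higher (edgeR), with a median log2 fold change of 0.04. With 11.1% of all genes called lower and 12.5% higher, these counts are near the background. At an unadjusted p below 0.05, 0 were lower and 2 higher, and DESeq2 called 0 lower and 1 higher. The difference between the nuclear and the mitochondrial set was not tested. mt-Nd2, a membrane core subunit of complex I, had 580.2, 549 and 488 CPM in KO libraries A, B and C, against 456, 490.2 and 472 CPM in WT libraries A, B and C. KO library C lay within the WT range (log2 fold change 0.19 ± 0.057 (SE), edgeR adjusted p = 0.0363). It was not called without KO library A, KO library B or any WT library (log2 fold changes from 0.13 to 0.22). The most abundant transcript by unique counts, mt-Co1 of complex IV, had 4214, 3964 and 3872 CPM in KO libraries A, B and C, against 3956, 4074 and 4114 CPM in WT libraries A, B and C, and its groups overlapped (log2 fold change -0.01).

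mt-Cytb, the mitochondrial subunit of complex III, had 2339, 2269 and 2013 CPM in KO libraries A, B and C, against 2086, 2153 and 2137 CPM in WT libraries A, B and C. Its groups overlapped (log2 fold change 0.05), and it was called higher without KO library C (0.12). mt-Nd1, mt-Nd4 and mt-Nd5, further core subunits of complex I, had log2 fold changes of 0.04, 0.02 and 0.12, none of them called, and mt-Nd5 was called higher without KO library C or WT library B (0.15 and 0.16). mt-Nd6, which lies on the other strand, had 7.3, 7.9 and 7.08 CPM in KO libraries A, B and C, against 8.22, 8.1 and 8.37 CPM in WT libraries A, B and C. Its KO libraries were all lower without a call (log2 fold change -0.15, edgeR adjusted p = 0.325). Counted without regard to strand, its log2 fold change was 0.21, where reads of the opposite strand enter. The other 6, mt-Co2, mt-Co3, mt-Atp6, mt-Atp8, mt-Nd3 and mt-Nd4l, had almost no unique counts while RSEM gave each 313 to 3676 TPM in a group mean. Among these 6, mt-Co2, mt-Co3 and mt-Atp6 passed the filter and were not called, and mt-Atp8, mt-Nd3 and mt-Nd4l were not tested. With RSEM counts mt-Atp8 was higher in KO (log2 fold change 0.60, edgeR adjusted p = 0.0268). The 7 with unique counts took 1.003%, 0.956% and 0.888% of gene counts in KO libraries A, B and C, against 0.892%, 0.930% and 0.927% in WT libraries A, B and C, and the shares overlapped. The nuclear members took 0.684%, 0.666% and 0.666% in KO, against 0.768%, 0.749% and 0.770% in WT, without overlap.

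Other genes of the pathway, from 12 lists that include the mitochondrial subunits, had 19 of 118 tested called lower (16.1%) and 4 called higher (3.39%). Of all genes tested, 11.1% were called lower and 12.5% higher, and 18.9% were lower among genes with at least 20 CPM. The median over the 118 was -0.11. The 118 include the 3 tested mitochondrial subunits with almost no unique counts. Without WT library C 12 were called lower. The number called higher was 7 without KO library C and 2 without KO library B or WT library C. Cyc1, the cytochrome c1 of complex III that the naming rule misses, had 73.8, 68.7 and 72.6 CPM in KO libraries A, B and C, against 86.8, 81.2 and 80.6 CPM in WT libraries A, B and C. It did not overlap between groups (log2 fold change -0.21 ± 0.043 (SE), edgeR adjusted p = 0.00222). Atpif1, the inhibitor of the ATP synthase, had a log2 fold change of -0.18 (edgeR adjusted p = 0.00107). Neither Cycs nor Nnt, the other tested genes of that list, was called.

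Assembly factors outside the naming rule had 9 of 49 called lower (18.4%) and 0 called higher (edgeR), with a median of -0.14. Of all genes tested, 11.1% were called lower and 12.5% higher, and 18.9% were lower among genes with at least 20 CPM. At an unadjusted p below 0.05, 2, 3, 3, 9 and 5 assembly factors of complexes I to V were lower and 1 was higher. Over all genes tested, 16.9% were lower and 18.1% higher at that threshold. In 24 of the 49 every KO library lay below every WT library (49.0%), and in 3 above (6.12%). These orders held for 20% and 19.2% of all genes tested. By complex the called falls were 1 of 10 for complex I, 1 of 4 for complex II, 1 of 6 for complex III, 3 of 24 for complex IV and 3 of 5 for complex V. Atpaf1, a chaperone of the F1 β subunit, had 17.9, 17 and 16.4 CPM in KO libraries A, B and C, against 22.5, 19.7 and 21.4 CPM in WT libraries A, B and C, without overlap (log2 fold change -0.31 ± 0.072 (SE), edgeR adjusted p = 0.00477). Fmc1, which also serves F1 assembly, had a log2 fold change of -0.34 (edgeR adjusted p = 0.0198) and was not called without KO library A or WT library B (-0.26 and -0.29). Coa3 and Surf1, assembly factors of complex IV, had log2 fold changes of -0.28 and -0.18 (edgeR adjusted p = 0.00264 and 0.00809). Tmem126b of complex I (-0.22), Sdhaf2 of complex II (-0.14) and Bcs1l of complex III (-0.19) were called lower with all libraries (edgeR adjusted p = 0.0225, 0.0364 and 0.0418). Tmem126b was not called without KO library A, WT library A or WT library B (log2 fold changes -0.18, -0.20 and -0.20). Among the fits that leave out a library, Sdhaf2 was called only without WT library A (log2 fold changes from -0.17 to -0.12) and Bcs1l only without KO library C (from -0.21 to -0.15).

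Of 9 tested carriers of ATP, phosphate and protons 5 were called lower and 0 higher, against 11.1% and 12.5% of all genes tested. The median was -0.14. Slc25a4, which exchanges ADP for ATP across the inner membrane, had 302, 297 and 279 CPM in KO libraries A, B and C, against 356, 354 and 359.6 CPM in WT libraries A, B and C. All KO libraries were lower (1.22-fold, log2 fold change -0.28 ± 0.037 (SE), edgeR adjusted p = 4.37e-05). Vdac2, a channel of the outer membrane, had a log2 fold change of -0.15 (edgeR adjusted p = 0.00627). Among 8 other donors of electrons to coenzyme Q, Etfa, which takes electrons from fatty acid oxidation, and Gpd2, the glycerol phosphate dehydrogenase, were called lower (-0.21 and -0.13, edgeR adjusted p = 0.00618 and 0.037). Among the fits that leave out a library, Gpd2 was called only without KO library C or WT library A (log2 fold changes from -0.15 to -0.10). Of 13 genes of coenzyme Q synthesis or handling 0 were called lower and 1 higher, against 11.1% and 12.5% of all genes tested. The rise was Coq10b (0.27, edgeR adjusted p = 0.0375), which likewise was called only without KO library C or WT library A (from 0.21 to 0.32).

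Genes that express mitochondrial DNA had 1 of 15 called lower, against 11.1% of all genes tested, and a median of -0.04. The fall was Lrpprc, which stabilises mitochondrial mRNAs (log2 fold change -0.16, edgeR adjusted p = 0.00689). Of 10 nuclear regulators of respiration 0 were called lower and 2 higher, against 11.1% and 12.5% of all genes tested. Their median was -0.03. Calls in these lists are near that background. Pprc1, a coactivator related to PGC-1α, had 43.3, 40.3 and 44.1 CPM in KO libraries A, B and C, against 37.9, 35.4 and 35.2 CPM in WT libraries A, B and C. Its KO libraries were all higher (log2 fold change 0.24 ± 0.052 (SE), edgeR adjusted p = 0.00338). Myc had 105, 118 and 119.8 CPM in KO libraries A, B and C, against 99.3, 98.6 and 101 CPM in WT libraries A, B and C, likewise without overlap (log2 fold change 0.20 ± 0.045 (SE), edgeR adjusted p = 0.00462). Nrf1, Gabpa and Yy1, whose letters were counted in the promoters above, had log2 fold changes of -0.11, -0.03 and -0.03 and were not called.

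Markers of other thymic cells moved in the same libraries, where 11.1% of all genes tested were called lower and 12.5% higher. Of 10 markers of medullary epithelium 6 were called higher and 0 lower, with a median log2 fold change of 0.70, and they summed to 5345 to 5728 CPM in KO and 3976 to 4545 CPM in WT. Of 8 tuft cell markers 6 were higher, and they summed to 164 to 210.3 CPM in KO and 104 to 113 CPM in WT. Of 9 tested markers of dendritic cells and macrophages 7 were higher, and they summed to 65.4 to 73.4 CPM in KO and 34.5 to 38 CPM in WT. Of 8 fibroblast markers 6 were higher, and they summed to 1199 to 1303 CPM in KO and 848 to 948 CPM in WT. Of 12 tested thymocyte markers 2 were higher, and they summed to 54.3 to 95.7 CPM in KO, highest in library A, and to 51.7 to 61.3 CPM in WT. No marker on these lists was at 0 in all libraries, and none of 6 tested endothelial markers was called. Their part in the lower level of the respiratory genes was not tested. Without KO library A, which had the highest thymocyte sum, 61 members were called lower, which is no test of a part of thymocytes. The medullary, tuft, dendritic and macrophage, and fibroblast sums were higher in every KO library. Leaving out a library is no test of their part either.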

How the data were processed

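Read counts and RSEM tables of 6 cTEC libraries were used. Per the submitters' processing notes, reads were handled with bcl2fastq 2.17, STAR 2.5.1b and RSEM 1.2.28. The notes name the human build GRCh38, while the identifiers are mouse Ensembl identifiers, so the build is uncertain. Symbols and positions come from GENCODE M21 (GRCm38), where 50376 of 50600 identifiers (99.56%) matched, and promoter sequences from RefSeq (GRCm38.p6).

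The deposited counts are raw reads per gene by strand setting, with multimapping reads counted apart in an entry of their own. The reverse-strand column was used. It held 34265035 to 39224292 gene counts per library, against 1597124 to 1790033 in the column of the opposite strand. Of all reads, 19.3%, 19.8% and 19.1% in KO libraries A, B and C fell in entries that name no gene and were left out. In WT libraries A, B and C the share was 18.8%, 18.6% and 18.4%, so every KO library lay above every WT library. The bearing of this difference on the fold changes was not tested. The authors also deposited RSEM expected counts (rounded here) and TPM. CPM was computed from the deposited counts with TMM library sizes.

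Genes passing filterByExpr (16938, of which 89 members) were fitted with the robust edgeR 4.0.16 quasi-likelihood test (R 4.3.3, TMM), with Benjamini-Hochberg adjustment over all genes tested and a call below 0.05. The SE is the log2 fold change divided by the root of F. TMM factors were 0.994 to 1.01. DESeq2 1.42.0, limma 3.58.1 on log2(TPM + 1) and log2(TPM + 0.1), other normalizations and filters, unstranded counts, a block and leaving out libraries were alternatives. The script was tested on simulated data. Figures used matplotlib 3.10.9 in Python 3.11.15.

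The members, gene lists, rules and tests were chosen with earlier results of these data known. Named were up to 4 called falls and 4 called rises per complex by p, the 2 members with the highest TPM per complex, the Sdh genes, the isoform families, up to 2 called genes of each other list, and the mitochondrial subunits. Members named beyond this rule, among them those not called and those with low unique counts, were chosen after their values were seen.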

Additional observations from a re-analysis of the deposited data

How the results depend on the processing

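Of the 89 tested members, 63 were called lower. That number was 37 by limma with 1 added to TPM and 37 with 0.1 added, 24 with the length trend taken out, 17 against a fold change of 1.1, and 45 to 61 without single libraries. All 63 had a fold change below 0 under 7 other scalings or quantifications. The 1 rise, Cox8b, became 0 with DESeq2, with means of at least 5 or 20 CPM, with both TPM scales, against the fold of 1.1 and without both A libraries, and was 0 to 1 without single libraries. At 5 or 20 CPM it was no longer tested. In the order log2(TPM + 1), log2(TPM + 0.1), length trend and fold of 1.1, the falls numbered 16, 16, 12 and 9 in complex I, 5, 5, 2 and 2 in complex IV, 1, 1, 0 and 1 in the Ndufaf genes, 7, 7, 10 and 3 in the other lists, and 2, 2, 2 and 0 in complex III. Complex II had 2 on either TPM scale and 1 at the fold of 1.1, and complex V had 5 without the length trend and 4 at that fold. The Ndufaf genes had 0 at 20 CPM or more, where Ndufaf8 and Ndufaf3 were no longer tested. Without single libraries, complex IV had 6 to 9, the Ndufaf genes 0 to 3, and the other lists 12 to 21 falls and 2 to 7 rises. Those lists had 0 rises on either TPM scale and 0 at the fold of 1.1. Calls over all genes (3989) were 2525 at 20 CPM or more, 1927 and 1857 on the TPM scales and 1827 at the fold of 1.1.

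Medians stayed below 0 in every set of members named here. On the TPM scales with 1 and 0.1 added they were -0.1411 and -0.1426 over all members, -0.1427 and -0.1441 in complex I, -0.1378 and -0.1387 in complex II, and -0.1392 and -0.1396 in complex III. With the length trend taken out they were -0.08704 over all members, -0.09028, -0.1483, -0.09041, -0.02303 and -0.08196 in complexes I to V, and -0.07921 in the Ndufaf genes. The median over all genes tested was 0.0245 in that fit. Complex I had -0.1496 at 5 CPM and -0.143 at 20 CPM or more, complex II -0.159 at 20 CPM or more, and complex IV -0.1012 with no filter. The Ndufaf genes had -0.1776 with RSEM counts and -0.1222 on log2(TPM + 1). Without single libraries the medians ran from -0.1946 to -0.1634 over all members, -0.1934 to -0.1601 in complex I, -0.2017 to -0.1709 in complex III, and -0.18 to -0.1074 in the Ndufaf genes. Of the named genes, mt-Nd6 changed sign, to 0.2127 with unstranded counts (edgeR adjusted p = 0.00987, and 0.325 with stranded ones). The cause of these shifts was not tested. The length, fold and both-A settings were chosen after the data were seen.

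With the replicate letter as a replicate block, 64 members were called lower and 1 higher. Same-letter libraries correlated at 0.04, 0.08 and -0.06 over 11295 genes, and libraries of different letters at -0.12 to 0.07. With 3 libraries a group these values cannot decide whether the letters mark pairs. The labels do not say whether the letters mark a shared mouse, day or batch. With a biological coefficient of variation of 0.0538 and 3 libraries a group, differences near 1.1-fold are at the limit of what could be called, and low-count members are limited by counting as well.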
